A study of Mus musculus with 12 samples.

Results

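Replication licensing loads the MCM helicase onto DNA before a cell copies its genome, and the 10 genes described here encode the helicase, its loaders and the inhibitor of loading. They are Mcm2, Mcm3, Mcm4, Mcm5, Mcm6 and Mcm7 (the ring of helicase subunits), Mcm10, Cdt1, Cdc6 and Gmnn, taken by symbol from 16288 genes listed in at least 1 of 12 RNA-seq libraries. All 10 were listed in 12 of 12 libraries and passed the filter on low counts, with 43 to 4376 counts per library. The libraries came from C2C12, an immortalized mouse myoblast line that leaves the cell cycle and fuses into myotubes when serum is lowered. Proliferating cells (GM) were kept in 10% fetal bovine serum, and differentiation was induced near confluence with 2% horse serum and insulin at 2 ug/ml for 24 h (DM 24h) or 48 h (DM 48h). At each of these 3 stages, cells received 50 uM PFI-3, a ligand of the bromodomains of SMARCA2, SMARCA4 and PBRM1 (subunits of SWI/SNF chromatin remodelling complexes), or the solvent DMSO. GM cells were treated for 12 h and then harvested. DM cells also had 12 h of pretreatment, and the compound or solvent was renewed in their medium every 24 h. Each of the 6 groups has 2 libraries, A and B, described as biological duplicates. Whether duplicates were separate cultures is not given in the sources used here, so a p-value measures only the spread between these libraries. All groups are 1 cell line, and no other line or primary myoblast was compared.

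Before S phase, the origin recognition complex, CDC6 and CDT1 place MCM2 to MCM7 rings around DNA at replication origins, which licenses each origin to fire once. CDC7 kinase, CDC45, the GINS proteins and MCM10 then turn the loaded ring into an active helicase. Geminin, the product of Gmnn, binds CDT1 during S and G2 phase and blocks reloading. Transcription of many of these genes is known to rise with E2F factors in cycling cells and to be shut down when myoblasts exit the cycle.

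Total depth was 12576374 to 13658352 expected counts per library. The myoblast markers Myod1, Myf5, Des, Cdh15 and Pax7 were present in every library. Their summed levels ran from 522 CPM (counts per library scaled to the same total) in GM PFI-3 to 3438 CPM in DM 48h DMSO. The sums rose with differentiation and were lower with PFI-3 at each stage. Myog, Myh3, Ckm, Mymk and Acta1, markers of differentiating muscle, summed to at most 11.4 CPM in GM libraries, 2268 and 2271 CPM in DM 24h DMSO, and 15383 and 15274 CPM in DM 48h DMSO. Endothelial, leukocyte, adipocyte and epithelial lists summed to at most 1.22, 0.573, 0.214 and 1.72 CPM. The neural list reached 68.4 CPM, nearly all from the tubulin gene Tubb3, while Sox10, Gfap and Rbfox3 were each at 0.244 CPM or lower. GM duplicates differed more than DM duplicates: chi-square per degree of freedom over genes was 19.1 and 14.1 in the GM groups against 1.75 to 2.13 in the DM groups.

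The promoters of these genes are shown first, because exact E2F words are shared by most of them. RefSeq promoter windows (GRCm38.p6, 250 bases before to 50 after an annotated start) were found for 8 of the 10 genes, as 9 windows. Mcm4 and Gmnn had no entry. At least 1 of 4 E2F words (TTTGGCGC, TTTCCCGC, TTTGCCGC or TTTCGCGC, on either strand) stood in the windows of 6 genes: Mcm3, Mcm5, Mcm6, Mcm7, Cdt1 and Cdc6. Of all 32851 windows of that length, 2.26% hold one. From 100 bases before the start, 4 of the 8 genes (Mcm3, Mcm6, Mcm7 and Cdt1) and 1.27% of all windows held a word. The stretches below are written 5′ to 3′ on the gene's strand, with E2F words in capitals. Runs of 12 capitals in Mcm5 and Mcm6 are a pair of words that overlap on opposite strands. The Mcm5 stretch lies at chr8:75109319-75109408 (plus strand) and the Mcm6 stretch at chr1:128359736-128359835 (minus strand), both outside annotated transcripts. The Mcm7 stretch, chr5:138172029-138172058 (minus strand), falls in an annotated untranslated exon stretch of Mcm7 and also of Ap4m1, which runs the other way. The Cdc6 stretch, chr11:98907991-98908050 (plus strand), is upstream of the RefSeq start and lies between exons of a longer annotated Cdc6 transcript. The Mcm3 stretch, chr1:20820266-20820295 (minus strand), and the Cdt1 stretch, chr8:122568037-122568064 (plus strand), lie in exons just after the RefSeq start, in part untranslated. A second Mcm7 word, after the start, is not shown.
Mcm5: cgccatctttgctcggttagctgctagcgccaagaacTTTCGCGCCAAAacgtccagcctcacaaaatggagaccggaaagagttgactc
Mcm6: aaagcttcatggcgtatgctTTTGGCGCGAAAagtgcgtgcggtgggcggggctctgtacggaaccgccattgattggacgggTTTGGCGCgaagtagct
Mcm7: atttcgaaccGCGGGAAAcagggtgtccaa
Cdc6: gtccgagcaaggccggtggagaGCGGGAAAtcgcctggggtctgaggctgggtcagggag
Mcm3: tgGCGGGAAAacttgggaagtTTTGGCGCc
Cdt1: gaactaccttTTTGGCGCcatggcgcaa

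Mcm2 and Mcm10 windows held none of these letters, which says nothing about E2F binding there. Mcm2 alone held TTTGAA, the core of the cell cycle homology region (CHR) through which other cell cycle complexes act; 17.9% of all windows hold it. With 1 of the 9 member windows holding it, the word is not more frequent here than among all windows. The stretch is printed only to show where the match lies. The stretch lies at chr6:88898821-88898880 (minus strand), with the word in capitals. CCAAT, on either strand, stood in the windows of 6 of 8 genes (all but Cdt1 and Cdc6) and in 37.4% of all windows. In Mcm7, 1 CCAAT match shares a base with the E2F word after the start, and no other CCAAT match of the members overlaps an E2F word. Matches are descriptions of letters, and no binding was measured.
Mcm2: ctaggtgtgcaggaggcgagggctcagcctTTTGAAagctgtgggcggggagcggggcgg

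All 10 genes fell as DMSO cells differentiated, and all 10 fell less by 48 h in PFI-3. In proliferating cells and at DM 24h, none passed the test between PFI-3 and DMSO. At DM 48h, all 10 were higher with PFI-3, by 1.80-fold (Mcm6) to 3.38-fold (Cdc6). The order of levels was shared: both GM groups were highest, both DM 24h groups came next, DM 48h PFI-3 followed, and DM 48h DMSO was lowest. Libraries of these 4 steps did not overlap in any of the 10 genes. Of all tested genes, 35.4% had both PFI-3 libraries above both DMSO libraries at DM 48h. The share of all genes with the whole order was not counted. In these bulk libraries, fewer cells transcribing a gene and less RNA per cell cannot be told apart.

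**Figure D1:**
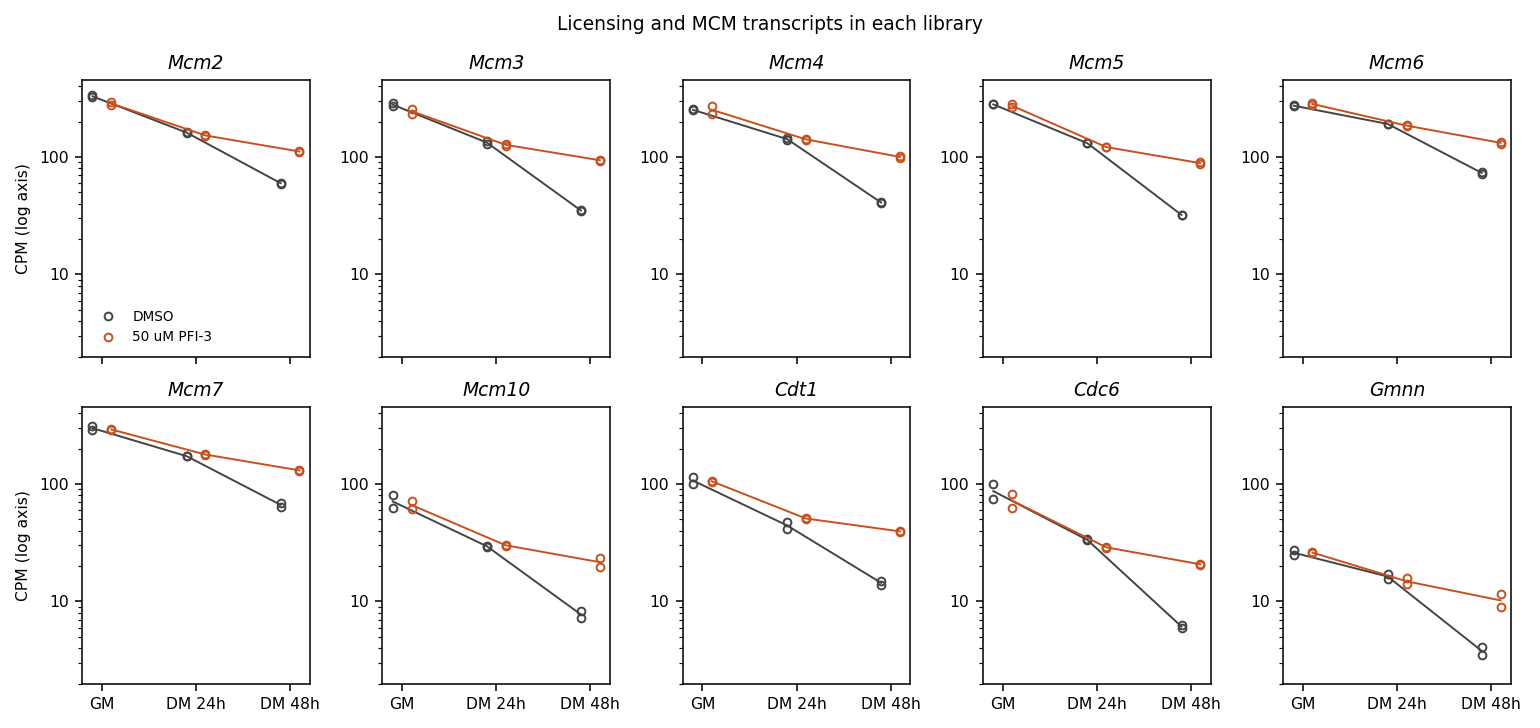
Level of each gene (CPM, log axis) in every library by stage, for DMSO and 50 uM PFI-3; circles are the 2 libraries of a group and lines join group means. The curves run together to DM 24h and part at DM 48h, where both PFI-3 libraries are above both DMSO libraries for all 10 genes.

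MCM2 to MCM7 form the ring that unwinds DNA. Mcm2 (NCBI Gene 17216; GRCm38 chr6:88883474-88898780) stood at 334 and 323 CPM in the GM DMSO libraries and at 275 and 296 CPM in GM PFI-3. After 24 h in DM the DMSO libraries had 159 and 164 CPM, and the PFI-3 libraries 151 and 155 CPM. On the second day it stood at 59.3 and 60.5 CPM in DMSO and at 113 and 110 CPM in PFI-3. PFI-3 libraries were thus lower, without overlap, at the first 2 stages and higher at the last. Its fitted log2 difference between PFI-3 and DMSO was -0.20 ± 0.06 (SE, n = 2 per group) in GM, then -0.08 ± 0.06 (DM 24h) and 0.89 ± 0.07 (DM 48h). Here and below, an SE of a fitted difference uses a spread shared by all 6 groups, so it does not show the wider GM spread. The GM libraries also enter the spread used in the DM tests. The GM difference sat at the edge of the threshold, with an adjusted p of 0.0504 in edgeR's quasi-likelihood test and 0.0256 to 0.517 over the alternatives.

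Mcm3 (17215; chr1:20802968-20820312) gave 288 and 269 CPM in GM DMSO, 234 and 257 CPM in GM PFI-3, 136 and 129 CPM in DM 24h DMSO, and 125 and 129 CPM in DM 24h PFI-3. At DM 48h its levels were 34.6 and 35.4 CPM in DMSO against 95.2 and 92.6 CPM in PFI-3. Mcm5 (17218; chr8:75109569-75128439) gave 280 and 281 CPM in GM DMSO, 265 and 281 CPM in GM PFI-3, 131 and 131 CPM in DM 24h DMSO, and 122 and 121 CPM in DM 24h PFI-3. Its DM 48h levels were 32.4 and 31.9 CPM in DMSO against 90.5 and 86.9 CPM in PFI-3. These were the ring subunits with the largest fall in DMSO and the largest difference at DM 48h: Mcm3 was 2.68-fold and Mcm5 2.76-fold higher with PFI-3. The fall and the difference share the DM 48h DMSO libraries. At DM 24h, Mcm5 was lower without overlap in PFI-3, but the fitted difference of -0.11 (95% interval -0.24 to 0.02) did not pass the test.

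Mcm4 (17217; chr16:15623897-15637400) gave 255 and 250 CPM in GM DMSO, 232 and 272 CPM in GM PFI-3, 146 and 138 CPM in DM 24h DMSO, and 141 and 142 CPM in DM 24h PFI-3. By 48 h it gave 41.4 and 40.4 CPM in DMSO against 97.6 and 103 CPM in PFI-3, a 2.45-fold difference. The treated libraries lay within or across the DMSO range at the earlier stages and well apart from it at the last.

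Mcm6 (17219; chr1:128331590-128359664) was the member that fell least. It gave 276 and 271 CPM in GM DMSO, 276 and 290 CPM in GM PFI-3, 191 and 192 CPM in DM 24h DMSO, and 187 and 183 CPM in DM 24h PFI-3. After 48 h it gave 74.7 and 71.7 CPM in DMSO against 134 and 130 CPM in PFI-3. Mcm7 (17220; chr5:138164583-138172422) gave 311 and 287 CPM in GM DMSO, 294 and 288 CPM in GM PFI-3, 172 and 173 CPM in DM 24h DMSO, and 180 and 177 CPM in DM 24h PFI-3. Its DM 48h levels were 63.9 and 69.0 CPM in DMSO against 132 and 129 CPM in PFI-3. Mcm2, Mcm6 and Mcm7 had the smallest fold differences at DM 48h (1.86, 1.80 and 1.96), and their 95% intervals on the log2 scale (upper bounds 1.04, 0.99 and 1.12) did not reach those of Mcm3 and Mcm5 (lower bounds 1.26 and 1.32). Mcm7 shares 421 bases with Ap4m1 and 64 bases with Cops6, both on the opposite strand. Whether strand was used in counting is not given in the sources used here, so reads from those stretches cannot be assigned. Ap4m1 and Cops6 averaged 16.7 and 81.5 CPM.

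Mcm10 encodes a protein that helps loaded rings become active helicases and is not part of the ring. Mcm10 (70024; chr2:4989714-5012791) gave 79.9 and 62.1 CPM in GM DMSO, 61.5 and 71.0 CPM in GM PFI-3, 29.8 and 29.3 CPM in DM 24h DMSO, and 30.4 and 29.8 CPM in DM 24h PFI-3. Its DM 48h levels were 8.30 and 7.20 CPM in DMSO against 19.8 and 23.4 CPM in PFI-3, a 2.79-fold difference.

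Cdc6 and Cdt1 encode the loaders. Cdc6 (23834; chr11:98907801-98923940) gave 99.4 and 74.5 CPM in GM DMSO, 62.4 and 82.1 CPM in GM PFI-3, 33.1 and 33.7 CPM in DM 24h DMSO, and 28.5 and 29.4 CPM in DM 24h PFI-3. At 48 h of differentiation it gave 6.34 and 5.89 CPM in DMSO against 20.9 and 20.5 CPM in PFI-3. It had both the deepest fall in DMSO and the largest difference at DM 48h, with a log2 difference of 1.76 ± 0.20 (SE). Both measures use the DM 48h DMSO libraries, so they are not independent. Cdt1 (67177; chr8:122568015-122573554) gave 115 and 99.1 CPM in GM DMSO, 104 and 107 CPM in GM PFI-3, 47.5 and 41.3 CPM in DM 24h DMSO, and 51.8 and 49.9 CPM in DM 24h PFI-3. At DM 48h it gave 14.9 and 13.9 CPM in DMSO against 39.2 and 39.8 CPM in PFI-3, a 2.74-fold difference. At DM 24h the loaders' fitted differences had opposite signs, 0.20 for Cdt1 and -0.21 for Cdc6, and neither passed the test. Cdt1 shares 5540 bases with Gm20388, an annotated gene on the same strand that was not listed in the libraries. Strand could not separate reads of these genes.

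Gmnn, for the inhibitor geminin (57441; chr13:24751845-24761923), was the least counted. It gave 24.8 and 27.3 CPM in GM DMSO, 25.7 and 26.5 CPM in GM PFI-3, 17.2 and 15.4 CPM in DM 24h DMSO, and 14.0 and 15.7 CPM in DM 24h PFI-3. At DM 48h it gave 4.07 and 3.52 CPM in DMSO against 11.5 and 8.90 CPM in PFI-3. The inhibitor thus moved in the same direction as the loaders, 2.69-fold higher with PFI-3 at DM 48h.

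The first comparison asked how PFI-3 altered these genes at each stage. In GM, 0 of 10 passed edgeR's test at an adjusted p of 0.05, where 11.6% of all 12545 tested genes were called. Mcm2 and Mcm3 had unadjusted p-values of 0.00589 and 0.0175, the only 2 members under 0.05. DESeq2 and limma on log2(FPKM + 1) also called 0 in GM. Mcm2 was called lower with a replicate block within each stage (adjusted p = 0.0256), with DESeq2-style size factors (0.0475) and with the filter at a mean of 10 counts (0.0491). Without GM DMSO B or GM PFI-3 B the test called 3 (Mcm2, Mcm3 and Cdc6, all lower). Libraries did not overlap for 3 genes in GM: Mcm6 was higher, beside 21.4% of all tested genes, and Mcm2 and Mcm3 were lower, beside 24.0%.

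At DM 24h, 0 of 10 were called beside 23.6% of tested genes, none had an unadjusted p under 0.05, and DESeq2 and limma called 0. These fits all used the 12 libraries, so their spread included that of the more variable GM duplicates. Both PFI-3 libraries were above both DMSO libraries for Mcm7, Mcm10 and Cdt1 (35.3% of all tested genes) and below them for Mcm2, Mcm3, Mcm5, Mcm6 and Cdc6 (35.2%). Fitted with the 4 DM 24h libraries alone, Cdt1 (higher, adjusted p = 0.0174) and Cdc6 (lower, adjusted p = 0.0353) were called. The share of all genes called in that fit was not counted, so these calls stand without a background.

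At DM 48h, 10 of 10 were called higher beside 13.4% of tested genes, with adjusted p from 1.13e-07 (Mcm5) to 8.99e-05 (Gmnn). The median log2 difference was 1.42 over the 10 genes and 0.0014 over all tested genes. Both PFI-3 libraries were above both DMSO libraries for all 10, beside 35.4% of tested genes. Each of the 10 remained called in every alternative run, with a largest adjusted p of 0.00254.

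**Figure D2:**
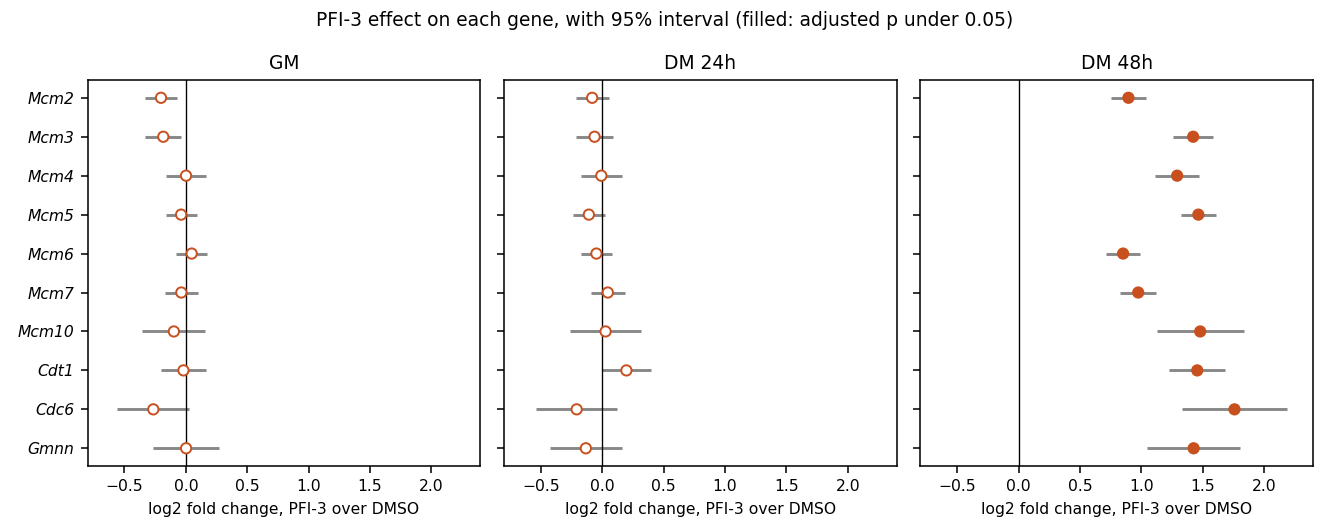
Fitted log2 fold change of PFI-3 over DMSO (points) with its 95% interval (lines) for each gene at GM, DM 24h and DM 48h; filled points passed an adjusted p of 0.05. Points lie between -0.27 and 0.20 at the first 2 stages and between 0.85 and 1.76 at DM 48h.

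The difference between stages was tested itself. The PFI-3 effect at DM 24h did not differ from that in GM for any of the 10 genes by edgeR's test (0 of 10 beside 3.37% of tested genes, 0 with an unadjusted p under 0.05, and 0 with DESeq2 and with limma). The effect at DM 48h exceeded that in GM for 10 of 10 genes (8.25% of tested genes) and that at DM 24h for 10 of 10 genes (7.12%). The medians were 1.45 and 1.38 on the log2 scale. These contrasts share the DM 48h libraries. Stage and length of exposure to PFI-3 changed together, so their parts in these differences cannot be told apart.

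The second comparison followed each treatment through differentiation. In DMSO, 10 of 10 genes were lower at DM 24h than in GM (30.0% of tested genes were lower), by 1.43-fold (Mcm6) to 2.60-fold (Cdc6). Compared with GM, 10 of 10 were lower at DM 48h (35.9%), by 3.74-fold (Mcm6) to 14.2-fold (Cdc6). From DM 24h to DM 48h, 10 of 10 fell further (23.9%), by 2.60-fold (Mcm7) to 5.45-fold (Cdc6). The log2 fall from GM to DM 24h was -0.52 (95% interval -0.65 to -0.39) for Mcm6 and -1.27 (-1.46 to -1.07) for Cdt1, so even within the set the early decline was uneven.

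With PFI-3, 10 of 10 were lower at DM 24h than in GM (28.2% of tested genes), by 1.53-fold (Mcm6) to 2.50-fold (Cdc6). At DM 48h, 10 of 10 were below GM (32.9%), by 2.14-fold (Mcm6) to 3.49-fold (Cdc6). From DM 24h to DM 48h, 10 of 10 fell (14.2%), but by only 1.29-fold (Cdt1) to 1.46-fold (Gmnn). The first-day falls did not differ between treatments by the test of the DM 24h against the GM effect above, whereas the second-day fall was smaller with PFI-3 in each gene by the test of the DM 48h against the DM 24h effect. The second-day fall with PFI-3 rested on few libraries for the 4 least counted genes. The Cdc6 call (adjusted p = 0.0400) was lost without any of DM 24h PFI-3 A or B or DM 48h PFI-3 A or B (0.118 to 0.156), and its alternatives ranged from 1.68e-05 to 0.156. The Gmnn call (0.0139) was lost without DM 24h PFI-3 B (0.114) or DM 48h PFI-3 B (0.140), over a range of 0.000546 to 0.140. The Mcm10 call (0.0207) was lost without DM 24h PFI-3 A or B (0.0982, 0.0818) or DM 48h PFI-3 A (0.175), over a range of 1.78e-05 to 0.175. The Cdt1 call (0.0114) was lost without DM 24h PFI-3 A (0.0807) or DM 48h PFI-3 A or B (0.0772, 0.0589), over a range of 3.47e-05 to 0.0807. DESeq2 also did not call Cdc6 (0.0561) or Gmnn (0.0602).

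As a share of the mean GM DMSO level, Cdc6 stood at 7.04% ± 0.37 (SD, n = 2) in DM 48h DMSO and 23.8% ± 0.31 in DM 48h PFI-3. Mcm6 stood at 26.8% ± 0.80 and 48.3% ± 1.27. Mcm5 stood at 11.5% ± 0.12 and 31.6% ± 0.90, and Gmnn at 14.6% ± 1.49 and 39.2% ± 7.10. In DM 24h DMSO, the 10 means ran from 38.4% (Cdc6) to 69.9% (Mcm6). The plot of levels left after induction shows PFI-3 cells at 48 h between the 24 h levels and the 48 h DMSO levels.

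**Figure D3:**
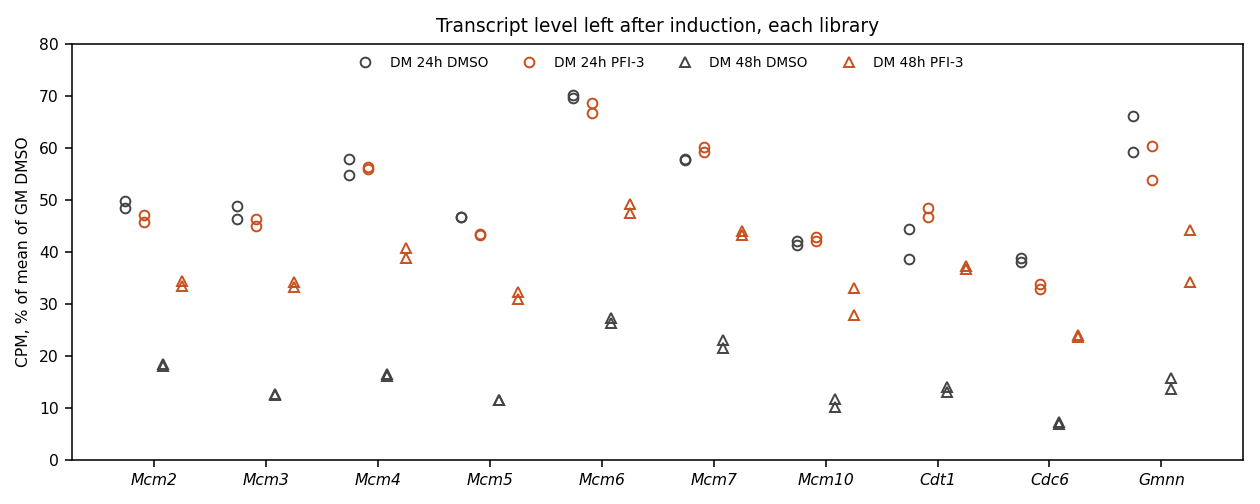
Level of each gene in every DM library as a percent of the mean CPM of the 2 GM DMSO libraries; circles are DM 24h, triangles DM 48h, grey DMSO and orange PFI-3. All orange triangles lie above the grey triangles and below the circles of the same gene.

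PFI-3 cells at DM 48h were also set against DMSO cells at DM 24h. Here 9 of 10 genes were lower in the PFI-3 cells (17.2% of tested genes), by 1.32-fold (Mcm7) to 1.61-fold (Cdc6). Cdt1 was the exception, with a log2 difference of -0.17 (95% interval -0.37 to 0.04; adjusted p = 0.187, 0.0607 to 0.729 over the alternatives). The Mcm10 call (adjusted p = 0.0226) was lost without DM 24h DMSO A or B (0.0995, 0.0838) or DM 48h PFI-3 A (0.180), over a range of 9.59e-06 to 0.180.

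Levels were compared between genes as FPKM, which divide by transcript length and library total. Ring subunits assemble in equal number, but their transcripts were not equal. In GM DMSO the 6 ring genes summed to 554 ± 6 FPKM (SD, n = 2), with Mcm7 highest (122 ± 2.0) and Mcm4 lowest (69.1 ± 1.7), a ratio of 1.77 ± 0.07. In DM 24h DMSO the sum was 313 ± 2.9 FPKM and in DM 24h PFI-3 316 ± 0.2. In DM 48h DMSO the sum was 100.04 ± 0.97 FPKM, with Mcm7 highest (26.9 ± 1.6) and Mcm5 lowest (9.14 ± 0.11), a ratio of 2.95 ± 0.21. In DM 48h PFI-3 the sum was 226 ± 2.4 FPKM and the ratio of Mcm7 to Mcm5 was 2.11 ± 0.04. Both DM 48h DMSO libraries had a wider ratio (2.80 and 3.10) than any of the other 10 libraries (1.59 to 2.13).

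The share of the summed ring FPKM shows which subunits moved. From GM DMSO to DM 48h DMSO, Mcm5 went from 14.5% ± 0.44 to 9.14% ± 0.20 and Mcm3 from 17.3% ± 0.35 to 11.9% ± 0.06. Over the same step Mcm6 went from 16.3% ± 0.25 to 23.6% ± 0.96 and Mcm7 from 22.1% ± 0.60 to 26.9% ± 1.34. Mcm2 kept 17.3% ± 0.08 and 17.3% ± 0.06. In DM 48h PFI-3, Mcm5 held 11.9% ± 0.17, Mcm3 15.0% ± 0.09 and Mcm6 20.1% ± 0.31, close to the DM 24h DMSO shares of 12.4% ± 0.05, 15.0% ± 0.51 and 20.7% ± 0.24. These shares carry no test, and each difference between the DM 48h groups named here for Mcm5, Mcm3 and Mcm6 exceeds the SD of either group.

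**Figure D4:**
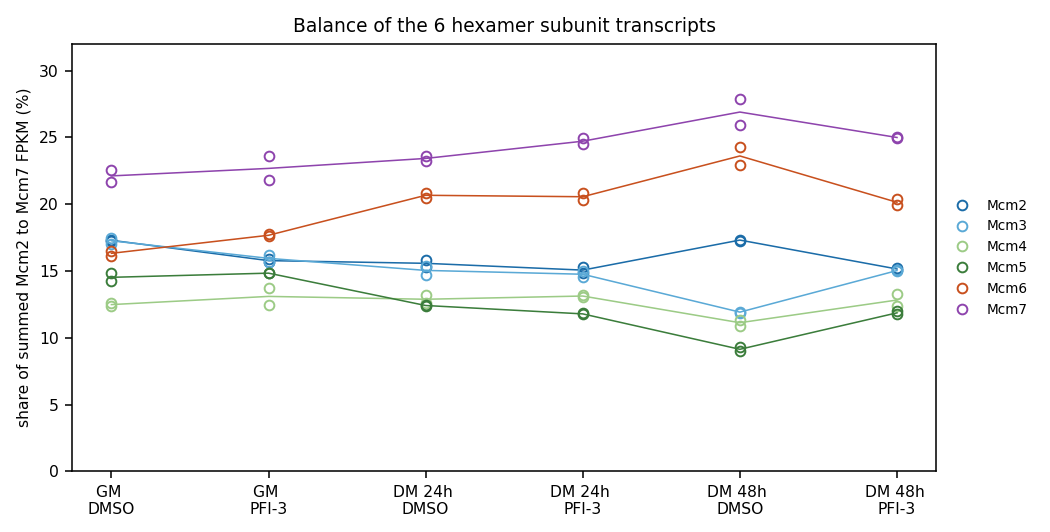
Share of each of the 6 ring subunit genes in their summed FPKM, in every library (circles) with group means joined by lines. Mcm6 and Mcm7 take their largest shares, and Mcm3, Mcm4 and Mcm5 their smallest, in DM 48h DMSO.

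Because geminin inhibits CDT1, the FPKM of Cdt1 was divided by that of Gmnn in each library. The ratio was 1.96 and 1.54 in GM DMSO, 1.72 and 1.70 in GM PFI-3, 1.17 and 1.13 in DM 24h DMSO, and 1.56 and 1.34 in DM 24h PFI-3. In DM 48h it was 1.55 and 1.67 in DMSO and 1.43 and 1.89 in PFI-3. The DM 24h DMSO libraries had the lowest ratios of the 12, and the DM 48h groups overlapped. The ratio was not tested, and it is of transcripts, whereas both proteins are known to be controlled by destruction in the cell cycle.

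The other genes of licensing and origin firing were taken from a list of 32, of which 31 were listed in the libraries and 30 were tested. Gmnc, a geminin relative, was not listed in any library, and Mcidas, another, was listed in 6 libraries with at most 2 counts. At DM 48h, where all 10 genes above were higher, 17 of these 30 were higher and 2 lower with PFI-3 (13.4% and 14.0% of all tested genes), with a median log2 difference of 0.44. In GM, 0 were higher and 2 lower (5.46% and 6.15% of all tested genes). After 24 h in DM, 1 was higher and 3 lower (12.2% and 11.4%). From GM to DM 48h in DMSO, 26 of 30 fell and 3 (Cul4a, Fbxo31 and Orc3) rose, beside 35.9% and 37.2% of all tested genes.

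The helicase activation genes were the most uniform list: 11 of 12 rose with PFI-3 at DM 48h, beside 13.4% of all tested genes, and all 12 fell from GM to DM 24h in DMSO, beside 30.0%. Recql4, a helicase-like initiation factor, gave 7.40 and 7.20 CPM in DM 48h DMSO against 16.1 and 19.4 CPM in PFI-3, a log2 difference of 1.28 ± 0.15 (adjusted p = 5.63e-05). Gins2, a GINS subunit, gave 4.96 and 5.97 CPM against 13.1 and 13.3 CPM, a difference of 1.27 ± 0.13 (adjusted p = 3.18e-05). Mtbp was the gene of this list that did not pass, at 0.39 (adjusted p = 0.0587).

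Of the 7 genes for CDT1 destruction, 2 rose and 2 fell with PFI-3 at DM 48h, beside 13.4% and 14.0% of all tested genes. Dtl, the substrate receptor that hands chromatin-bound CDT1 to the CUL4 ubiquitin ligase during S phase, gave 14.1 and 13.9 CPM in DMSO against 35.6 and 37.6 CPM in PFI-3, a difference of 1.39 ± 0.11 (adjusted p = 3.39e-06). Cks1b, a cofactor of SKP2, was the other that rose. Ddb1, the adaptor of the CUL4 ligase, was lower with PFI-3 at DM 48h (1306 and 1307 CPM against 1110 and 1039 CPM; log2 difference -0.28, adjusted p = 0.00403) and in GM (-0.30, adjusted p = 0.00918). Fbxo31, an F-box protein, fell short of DMSO at DM 48h by a log2 difference of -0.26 (adjusted p = 0.0377), having exceeded it at DM 24h by 0.29 (adjusted p = 0.0331). Over the alternatives the adjusted p of Ddb1 reached 0.0528 (DM 48h) and 0.365 (GM), and that of Fbxo31 reached 0.213 (DM 48h) and 0.247 (DM 24h).

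Origin recognition genes were split: Orc1 and Orc6 were higher with PFI-3 at DM 48h, beside 13.4% of all tested genes. The other 4 were uncalled. Orc1, the subunit whose transcript is known to cycle, gave 2.52 and 3.35 CPM in DMSO against 5.95 and 6.01 CPM in PFI-3 (log2 difference 1.02 ± 0.22, adjusted p = 0.00516, up to 0.0616 over the alternatives). Orc5 was lower in GM (-0.45, adjusted p = 0.0462, 0.00896 to 0.298 over the alternatives). At DM 24h, Orc4 (-0.37), Rif1 (-0.34) and Orc6 (-0.27) were lower, with adjusted p of 0.0233, 0.0114 and 0.0343. Over the alternatives these ran up to 0.185, 0.122 and 0.156. None of the 4 genes called at DM 24h was called without DM 24h DMSO A or DM 24h PFI-3 A, only Orc4 and Rif1 of them were without DM 24h DMSO B, and only Rif1 was without DM 24h PFI-3 B. Among MCM relatives and loading partners, Mcm8 and Rif1 rose at DM 48h, beside 13.4% of all tested genes. Mcm9, Mcmbp and Kat7 were not called. An E2F word stood in the promoter windows of 7 of the 26 other pathway genes with an entry: Dtl, Gins3, Mcm8, Mcmbp, Orc1, Orc3 and Topbp1. Of all windows, 2.26% hold one.

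**Figure D5:**
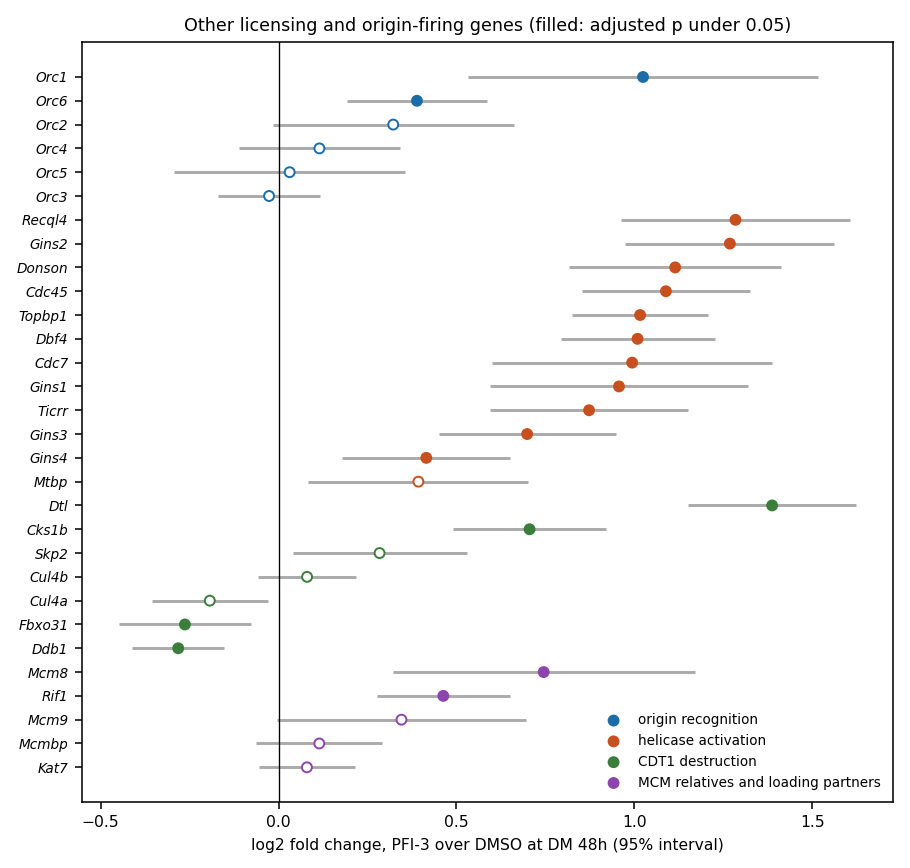
Fitted log2 fold change of PFI-3 over DMSO at DM 48h with its 95% interval for 30 other licensing and origin-firing genes, coloured by list; filled points passed an adjusted p of 0.05. Of the 12 helicase activation genes 11 are filled and above 0, while the CDT1 destruction genes lie on both sides of 0.

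Cell cycle genes show that the 24 h decline was not a decline of every proliferation transcript. Mki67, a marker of cycling cells, was at 489 and 553 CPM in GM DMSO and at 739 and 740 CPM in DM 24h DMSO, a rise of 0.50 on the log2 scale. Top2a, a topoisomerase that peaks late in the cycle, was at 546 and 530 CPM and then 565 and 531 CPM, which did not pass the test. Over the same step Pcna, the sliding clamp of replication, fell by 0.69 and Ccne1, the G1/S cyclin, by 0.85. At DM 48h both late markers had fallen as well, Mki67 to 237 and 222 CPM and Top2a to 173 and 186 CPM in DMSO. With PFI-3 at DM 24h, Mki67 (-0.50), Top2a (-0.27, adjusted p = 0.00882, up to 0.0973 over the alternatives) and Ccna2 (-0.42) were lower, at a stage where none of the 10 licensing genes passed the test. Ccne1 was higher there (0.42, adjusted p = 0.0163, up to 0.123 over the alternatives). With PFI-3 at DM 48h, 8 of 11 cell cycle genes rose (13.4% of all tested genes), among them Ccne1 (1.61), E2f1 (1.10), Rbl1 (1.09) and Pcna (0.93). In GM, E2f1 (0.32) and Rbl1 (0.31) were also higher with PFI-3. Their adjusted p in edgeR's test, 0.0229 and 0.0423, ran up to 0.313 and 0.395 over the alternatives. At DM 24h neither gene was called. Mean E2f1 was then 53.8 CPM in DMSO and 53.7 CPM in PFI-3, and mean Rbl1 was 70.0 and 65.9 CPM.

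Cdkn1a, the inhibitor p21, and Rb1, the retinoblastoma repressor of E2F, went the other way. Cdkn1a was at 190 and 170 CPM in GM DMSO, 723 and 781 CPM in DM 24h DMSO and 2031 and 2028 CPM in DM 48h DMSO. In PFI-3 it stood lower both at DM 24h (465 and 480 CPM) and later at DM 48h (1429 and 1370 CPM), with log2 differences of -0.67 and -0.54. Rb1 differed by -0.70 and -0.27 at these stages, the latter with an adjusted p of 0.0121 that ran up to 0.145 over the alternatives. Both genes still rose from GM to DM 48h with PFI-3, Cdkn1a by 3.27 and Rb1 by 2.45 on the log2 scale. The muscle genes Myog, Myh3 and Ckm were lower with PFI-3 at both DM stages. They were lower by more at DM 24h, where no licensing gene passed the test. At DM 48h, Myog stood at 1214 and 1179 CPM with PFI-3 against 1822 and 1845 CPM in DMSO. The log2 differences there were -0.62 for Myog, -0.58 for Myh3 and -0.92 for Ckm. Over the alternatives their adjusted p ran up to 0.158, 0.00673 and 0.178. At DM 24h, Myog (-1.05), Myh3 (-1.64) and Ckm (-1.36) were also lower, with adjusted p over the alternatives of up to 0.0220, 4.11e-05 and 0.0549. Tubb3 was lower with PFI-3 at all 3 stages (-0.75, -1.504 and -1.35), and the GM call had an adjusted p of 0.00310 that ran up to 0.168 over the alternatives. The part of these genes in the licensing differences was not tested.

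Across the 12 libraries, the members' log2 CPM moved closely together, with pairwise Pearson correlations of at least 0.971 and a median of 0.992 over 45 pairs. The 5 other genes most like the mean standardised profile of Mcm2 to Mcm7 were Dnmt1 (r = 0.999), Cdc45 (0.998), Timeless (0.998), Wdhd1 (0.997) and Ercc6l (0.997). They encode the maintenance DNA methyltransferase, a helicase subunit, a fork protection factor, a fork scaffold and a mitotic DNA translocase. The libraries share stage and treatment groups, so these correlations describe the profile and carry no p. At DM 48h these genes were higher with PFI-3 by 0.71 (Dnmt1) to 1.20 (Ercc6l) on the log2 scale, a range that meets only the lower end of the members' 0.85 to 1.76. Dnmt1 stood at 129 and 125 CPM in DM 48h DMSO against 210 and 206 CPM in DM 48h PFI-3.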

How the data were processed

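Per the labels' protocols, RNA was extracted with Trizol, and libraries were prepared by the sequencing provider. The authors deposited, per library and gene, an expected count, an FPKM value and a transcript length, per the file headers. The submitters' processing notes name HISAT, StringTie, Cufflinks, Bowtie, RSEM, DESeq2 and build mm10, without roles, and the counting of strand is not given in the sources used here. Deposited FPKM values were used for levels between genes and in limma. Expected counts were rounded and tested for 12545 genes kept by edgeR's filterByExpr, with TMM scaling, in 1 model of 6 groups over all 12 libraries (edgeR 4.0.16 quasi-likelihood test in R 4.3.3, Benjamini-Hochberg over all genes tested, threshold 0.05). CPM used the same scaling. Alternatives were DESeq2 1.42.0, its size factors in edgeR, other filters (none, or a mean of 10 counts), limma 3.58.1 on log2(FPKM + 1) and log2(FPKM + 0.1), replicate blocks, only the libraries compared, and leaving out, in turn, each library of the groups compared. The models were tested on simulated data. Tables were made with Python 3.11.15 and pandas 2.3.3, and plots with matplotlib 3.10.9. Gene positions are from GENCODE vM21 (GRCm38, the sequence of mm10) and promoters from RefSeq. The members and gene lists were chosen with earlier results of these data known. All 10 members are named. Of the other pathway genes averaging 5 CPM or more, up to 3 called rises and 3 called falls per stage are named, with those that failed the filter. The 5 similar genes are those of highest correlation with a mean of at least 5 CPM. Mtbp, Orc1, Cks1b and other genes given by name in counts, and the cell cycle and muscle genes singled out from their lists, were chosen after their values were seen.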

Additional observations from a re-analysis of the deposited data

Results flagged for a closer look

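The PFI-3 effect, as the log2 difference between PFI-3 and DMSO, differed between stages for all 10 genes when the difference was tested itself in edgeR's quasi-likelihood model. Against GM, the effect at DM 48h was greater by 1.10 for Mcm2, 1.61 for Mcm3, 1.29 for Mcm4, 1.503 for Mcm5, 0.80 for Mcm6 and 1.01 for Mcm7. For the other genes it was greater by 1.58 (Mcm10), 1.47 (Cdt1), 2.02 (Cdc6) and 1.42 (Gmnn). Against DM 24h it was greater by 0.98 for Mcm2, 1.48 for Mcm3, 1.30 for Mcm4, 1.57 for Mcm5, 0.90 for Mcm6 and 0.93 for Mcm7. For the other genes it was greater by 1.45 (Mcm10), 1.26 (Cdt1), 1.97 (Cdc6) and 1.56 (Gmnn). The largest adjusted p of the 20 was 0.00106. Both sets use the DM 48h libraries. Later stages also had longer exposure to PFI-3, so stage and exposure cannot be told apart.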

How the results depend on the processing

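The 48 h rise with PFI-3, every fall from GM, the fall from 24 h to 48 h in DMSO and both 48 h differences in effect were called for each of the 10 genes in all 11 other settings and with any library of the groups compared left out in turn. Within a stage, deviations of same-letter DMSO and PFI-3 libraries correlated at 0.488 in GM, but at 0.0177 (DM 24h) and 0.0370 (DM 48h) later. Same-letter GM libraries thus shared a deviation, for which the main test had no block. Between stages the correlation was -0.0455 to 0.0357, so the letters showed no pairing across stages. A replicate block within each stage gave 1 call among the 10 genes in GM (Mcm2, 0 without the block), as did DESeq2-style size factors and a mean of at least 10 counts. Leaving out a library gave 0 to 3 calls in GM. Only the libraries compared, with or without a replicate block, gave 2 calls at DM 24h. Of the other pathway genes in GM (2 called), DESeq2 called 1, only the libraries compared 0, and the same with a replicate block 1. Leaving out a library gave 2 to 5, with 5 without GM DMSO B. At DM 24h (4 called), limma called 2 at either pseudocount and 1 with no filter, and only the libraries compared gave 13 with or without a replicate block. The share of all genes called in these other settings was not counted, so the counts stand without a background. The cause of these changes was not tested. With PFI-3 from 24 h to 48 h, the replicate block within each stage ended the calls of Cdc6 (adjusted p = 0.149) and Gmnn (0.0861).

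Sign changes touched only log2 differences that were not called. In GM, Mcm4 was -0.0052 with DESeq2-style size factors and DESeq2, -0.00072 with no filter and -0.0019 with the stage replicate block. Gmnn in GM was -0.0048, -0.0046 and -0.00010 with size factors, DESeq2 and no filter. Mcm10 at DM 24h was -0.0023 with both of the first 2. With limma at pseudocounts of 1 (with or without a filter) and 0.1, the GM values were 0.0598 and 0.0605 for Mcm5, 0.0643 and 0.0648 for Mcm7, 0.0086 and 0.0092 for Mcm10, and 0.0818 and 0.0833 for Cdt1. The DM 24h limma values were 0.0405 and 0.0414 for Mcm4 and 0.0066 and 0.0067 for Mcm6. Leaving out a library, GM values ran from -0.117 to 0.111 (Mcm4), -0.0803 to 0.0022 (Mcm5), -0.0921 to 0.0224 (Mcm7), -0.269 to 0.0965 (Mcm10), -0.122 to 0.0914 (Cdt1) and -0.0642 to 0.0750 (Gmnn). At DM 24h, Mcm4 ran from -0.0408 to 0.0318. The DM 24h minus GM effect ran from -0.118 to 0.109 (Mcm4, 0.0011 with only the libraries compared and a replicate block), -0.0645 to 0.296 (Mcm10) and -0.162 to 0.269 (Cdc6). No setting moved the median of all genes by over 0.0916. For levels per library, FPKM in place of CPM was not run on the raw scale, since the units differ. As percent of GM DMSO with FPKM, 30 of 50 percent levels moved by more than 1 SD, by at most 7.22 percentage points. Gmnn, with as few as 43 counts in a library, is the least precise member, and GM duplicates differ most, so small GM differences are the least certain.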
